A study of Mus musculus with 15 samples.

Results

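Lipid-laden monocyte-derived macrophages (MDM) were compared with lipid-laden microglia, to see which differences of origin remain among macrophages that carry lipid. The comparison used 7 of the 15 bulk RNA-seq libraries of the series, chosen by their labels alone: 3 of lipid-laden MDM (numbers 224, 221 and 718) and 4 of lipid-laden microglia (numbers 224, 221, 431 and 718). The lipid-laden MDM of number 431 were not analysed here. The cells had been purified by flow cytometry from primary mouse brain tumours of the model named PDG-Ink4a, and all libraries carried the genotype Ink4a/ArfKO, PDGFB. In this model the growth factor PDGFB is forced on Nestin-positive progenitor cells that lack the Ink4a/Arf tumour suppressor locus. Non-lipid-laden MDM and non-lipid-laden microglia from the same kind of tumour (4 libraries each, numbers 224, 221, 431 and 718) served as the reference for the difference of origin without lipid load. No group came from tumour-free brain. The age and treatment of the mice, the stain and gate for lipid and the sorting markers for origin are not stated in the labels. Nothing in the labels says that a number is 1 animal or that the cells of a library were not pooled, so the p-values measure the spread between these libraries, which may in part be technical. That spread was estimated over all 15 libraries, the non-lipid-laden ones included.

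Microglia are the macrophages that settle in the brain before birth and maintain themselves there, while MDM descend from blood monocytes that enter a tumour. Both engulf dying cells and myelin debris, and those that store the cholesterol and fatty acids of that debris in lipid droplets are called lipid-laden or foamy. Origin is commonly read from Ccr2, through which monocytes follow chemokines out of the blood, and the integrin subunit gene Itga4 on one side, and from P2ry12, Tmem119 and Sall1, which mark resident microglia, on the other.

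Total counts were 9306839 to 10699235 in lipid-laden MDM and 8962885 to 9797627 in lipid-laden microglia, and levels are given as CPM, counts divided by library size, always in the library order 224, 221 and 718 for lipid-laden MDM and 224, 221, 431 and 718 for lipid-laden microglia. In the results below, MDM and microglia named with no further word are the lipid-laden groups. Lipid-laden microglia library 221 stood apart from the other 3 of its group. On the second principal component of the 7 libraries (23.2% of the variance) it lay at -116, whereas the other 6 lay between -46.4 and 68.5, and it held Arg1, Cd36 and MHC class II transcripts far above its group. Its 11 endothelial and mural cell genes summed to 380 CPM, against 31.5, 122 and 206 CPM in microglia libraries 224, 431 and 718. In lipid-laden MDM the same genes summed to 69.8 to 165 CPM. The part of such cells in the values of library 221 was not tested. Where leaving library 221 out moved a named difference between the lipid-laden groups by over 1.5 times, or where it alone made them overlap, the value without it is given. RNA encoded in mitochondria took 0.623 ± 0.129% of all counts in lipid-laden MDM and 0.969 ± 0.106% in lipid-laden microglia (SD, n = 3 and 4). Libraries of both origins that shared a number deviated together from their group means (correlation across genes 0.107 to 0.168 for the 3 pairs, -0.108 to 0.0291 for other combinations), and the Y-linked gene Ddx3y was expressed in number 224 only.

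Transcripts of T and NK cells, conventional dendritic cells and glioma cells moved with origin. The summed level of 17 T and NK cell genes was 88.5 to 175 CPM in lipid-laden MDM and 5.35 to 16.2 CPM in lipid-laden microglia, and 341 to 524 against 4.43 to 14.0 CPM without lipid load. For 5 defining markers of conventional dendritic cells it was 96.9 to 116 against 6.23 to 17.2 CPM, with Dpp4 at 0 counts in lipid-laden microglia, and without lipid load 516 to 1368 against 20.6 to 32.2 CPM. The longer dendritic cell list overlapped between the lipid-laden groups, at 841 to 957 against 479 to 1193 CPM. For B and plasma cells the groups overlapped, at 1.98 to 11.4 against 0.502 to 2.67 CPM for 4 markers and 241 to 378 against 172 to 463 CPM for the whole list. Neutrophils did too, at 25.9 to 59.3 against 2.56 to 26.7 CPM for 4 markers, with Ly6g at 0 in both groups. For these markers the overlap came through microglia library 221 alone, and the other microglia libraries lay at 2.56, 6.07 and 7.32 CPM. The whole neutrophil list was at 169 to 639 against 167 to 313 CPM. In the other direction, 17 glioma and progenitor genes summed to 101 to 199 CPM in lipid-laden MDM, 293 to 594 CPM in lipid-laden microglia, 25.8 to 52.3 CPM in non-lipid-laden MDM and 456 ± 138 CPM in non-lipid-laden microglia (SD, n = 4). In bulk RNA, fewer cells of a type and less RNA per cell cannot be told apart.

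The labels of origin were checked against markers of each kind. The 8 monocyte-derived markers (Ccr2, Itga4, Tgfbi, Plac8, Ahnak, Emilin2, Vim and Ly6c2) summed to 1349 to 1733 CPM in lipid-laden MDM, above the 332 to 817 CPM of lipid-laden microglia, and to 3253 to 3921 CPM in non-lipid-laden MDM. Not every member separated the lipid-laden groups. Vim overlapped, at 205, 243 and 189 CPM in MDM and 118, 422, 243 and 265 CPM in microglia. Emilin2 did too, at 201, 90.8 and 187 CPM in MDM and 55.7, 137, 133 and 204 CPM in microglia. The 7 microglial markers (P2ry12, Tmem119, Sall1, Gpr34, Siglech, Fcrls and Olfml3) overlapped between the lipid-laden groups through microglia library 221 alone. They summed to 3693 to 6565 CPM in lipid-laden MDM, to 3164 CPM in microglia library 221 and to 8029 to 10683 CPM in the other 3 microglia libraries, against 1113 to 2241 CPM in non-lipid-laden MDM. No marker of either set was at 0 in any group as a whole. Each library was also placed on a scale of origin made from the genes called between the non-lipid-laden groups, on which their means lie at 0 (microglia) and 1 (MDM). Lipid-laden MDM libraries 224, 221 and 718 lay at 0.522, 0.453 and 0.413, between both references, while lipid-laden microglia lay at -0.00229, 0.104, 0.0247 and 0.00236 (numbers 224, 221, 431 and 718). By the genes higher in non-lipid-laden MDM alone, these MDM libraries lay at 0.605, 0.520 and 0.529, and by the genes lower there at 0.433, 0.381 and 0.287. The genes were chosen on the non-lipid-laden libraries, which favours a smaller origin effect in other libraries. So the libraries labelled lipid-laden MDM carried the monocyte-derived markers and also microglial markers, the latter above every non-lipid-laden MDM library and below 3 of 4 lipid-laden microglia libraries. A mixture of both kinds of cells in a library and 1 kind of cell with both sets of transcripts cannot be told apart here.

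Of 14843 genes tested with edgeR, 413 (2.78%) differed between lipid-laden MDM and lipid-laden microglia at an adjusted p under 0.05. Among them, 327 (2.20%) were higher and 86 (0.579%) lower in MDM, and 271 and 65 of these differed at least 2-fold. The counts of list members called below stand beside the 2.20% and 0.579% of all genes. As the lists were chosen with earlier results of these data known, these counts describe the lists and do not test them. The median log2 fold change over all genes was -0.03. Of the 413, 411 had the same direction in all 3 number-matched pairs, and 52 were at 0 counts in all lipid-laden microglia libraries. The calls rest on the libraries of these pairs, so the shared direction is not separate evidence. The same contrast without lipid load called 3442 genes (23.2%), 1584 (10.7%) higher and 1858 (12.5%) lower in MDM. Between the lipid-laden groups, the libraries did not overlap in CPM for 1091 genes with MDM higher (7.35%) and for 767 with MDM lower (5.17%). In a fit of all 15 libraries with the library number as a block, which compares libraries of 1 number, the counts among lipid-laden cells were 422 higher and 147 lower. A fit of the 7 lipid-laden libraries alone called 127 higher and 49 lower. The block on the 6 number-matched lipid-laden libraries called 67 and 22. In the fit without a block, the counts fell to 155 higher and 13 lower without lipid-laden MDM library 224, to 210 and 33 without microglia library 431 and to 226 and 35 without MDM library 718, and the lower count was 52 without MDM library 221 and 49 without microglia library 718. Where a named call was lost in a fit that left out 1 library, that library is named below, with the adjusted p then reached in parentheses.

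Most of the calls that remained were of genes higher in MDM, while the direction of the origin difference was mostly kept on both sides. Of the 1584 genes higher in non-lipid-laden MDM, 288 (18.2%, and 88.1% of the 327) were also called higher in lipid-laden MDM, and 1373 (86.7%) had a positive log2 fold change there, against 47.5% of all genes tested. Their median log2 fold change was 1.46 without and 0.58 with lipid load. Of the 1858 genes lower in non-lipid-laden MDM, 57 (3.07%, and 66.3% of the 86) were also called lower, 83.3% had a negative log2 fold change (52.3% of all genes), and the median went from -1.97 to -0.49. The difference between both origin effects was called for 135 of the former, smaller with lipid load for 133, and for 228 of the latter, all smaller. These genes were chosen by their call without lipid load, and the test reuses those libraries, so the choice itself favours a smaller effect with lipid load and the direction is given as a description. Both contrasts use different libraries, and the test of their difference uses all of them. Another 38 genes were higher and 28 lower in lipid-laden MDM without a call in the non-lipid-laden comparison, but the difference was called for only 4 and 1 of them, so most are not shown to be particular to lipid-laden cells.

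**Figure D1:**
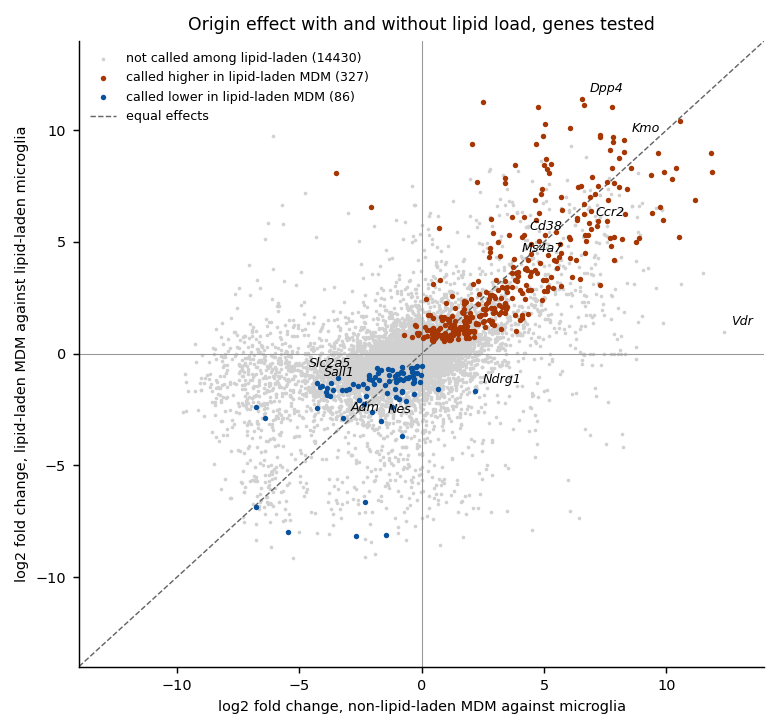
Log2 fold change of MDM against microglia with lipid load (vertical axis) and without it (horizontal axis), 1 point per gene tested, with the 327 genes called higher and the 86 called lower among lipid-laden cells in colour and a dashed line where both effects are equal. Values of genes at or near 0 counts in a group, far from the origin, depend on the prior count of the fit. Genes on the microglial side lie nearer to 0 on the vertical than on the horizontal axis, as the medians of -0.49 and -1.97 show, and Ndrg1 changes sign between the axes.

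Markers of monocyte origin remained higher in lipid-laden MDM. Of 27 genes of this list, 15 were higher and none was lower by edgeR (1 lower by DESeq2), with a median log2 fold change of 2.78, against 27 higher and a median of 4.33 without lipid load. Ccr2 (ENSMUSG00000049103, chr9:124101950-124113557) was at 290.1, 186 and 169.5 CPM in MDM and 2.67, 6.43, 0 and 5.69 CPM in microglia (log2 fold change 5.85, SE 0.63, edgeR adjusted p = 0.000128). The groups did not overlap, and microglia library 431 held no count. Itga4 (ENSMUSG00000027009, chr2:79255426-79333123) was at 55.0, 24.6 and 29.2 CPM in MDM and 0.557, 0, 0 and 4.27 CPM in microglia (log2 fold change 4.89, SE 1.07, edgeR adjusted p = 0.0206), where microglia library 718 was the highest of its group. Tgfbi (ENSMUSG00000035493, chr13:56609523-56639562), a secreted matrix protein induced by TGF-beta, was at 885, 691 and 889.9 CPM in MDM and 144, 224, 231 and 301 CPM in microglia (log2 fold change 1.87, SE 0.24, edgeR adjusted p = 0.000463). All 3 MDM libraries were above all 4 microglia libraries for these genes.

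Over the whole list, 25 of the 27 genes had a positive log2 fold change and 2 a negative one, down to -0.957. Further members with a positive value follow. Plac8, expressed in monocytes, was at 32.6, 72.5 and 84.6 CPM in MDM and 5.57, 9.64, 8.44 and 13.0 CPM in microglia (log2 fold change 2.78, SE 0.41, edgeR adjusted p = 0.00132), with MDM library 224 the lowest of its group. Lsp1, a leukocyte F-actin binding protein, was at 263, 185 and 203 CPM in MDM and 67.2, 111, 63.8 and 62.8 CPM in microglia (log2 fold change 1.51, SE 0.21, edgeR adjusted p = 0.000815). Mgst1, a membrane glutathione transferase, was at 132, 235 and 117 CPM in MDM and 3.68, 30.0, 1.54 and 8.34 CPM in microglia (log2 fold change 3.88, SE 0.90, edgeR adjusted p = 0.0292), and its number 221 was the highest in both groups. The origin effect was smaller with lipid load than without it for 7 of the 27 genes and larger for none. All 27 were called higher without lipid load, and the test reuses those libraries, which favours a smaller effect. Plac8 was at 577 ± 84.3 against 16.4 ± 9.28 CPM in non-lipid-laden MDM and microglia (difference -2.35, SE 0.56, edgeR adjusted p = 0.0342). Lsp1 was at 1028 ± 209.6 against 64.2 ± 6.48 CPM (difference -2.49, SE 0.29, edgeR adjusted p = 0.00178). Itga4 was not called without MDM 224 or microglia 224 (up to 0.0917). Mgst1 was not called without MDM 224, 221 or 718 or microglia 224, 431 or 718 (up to 0.0819). For Plac8 the difference was not called with any library left out except lipid-laden microglia 224, non-lipid-laden MDM 221 and 431 and non-lipid-laden microglia 221 and 718 (up to 0.0851).

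**Figure D2:**
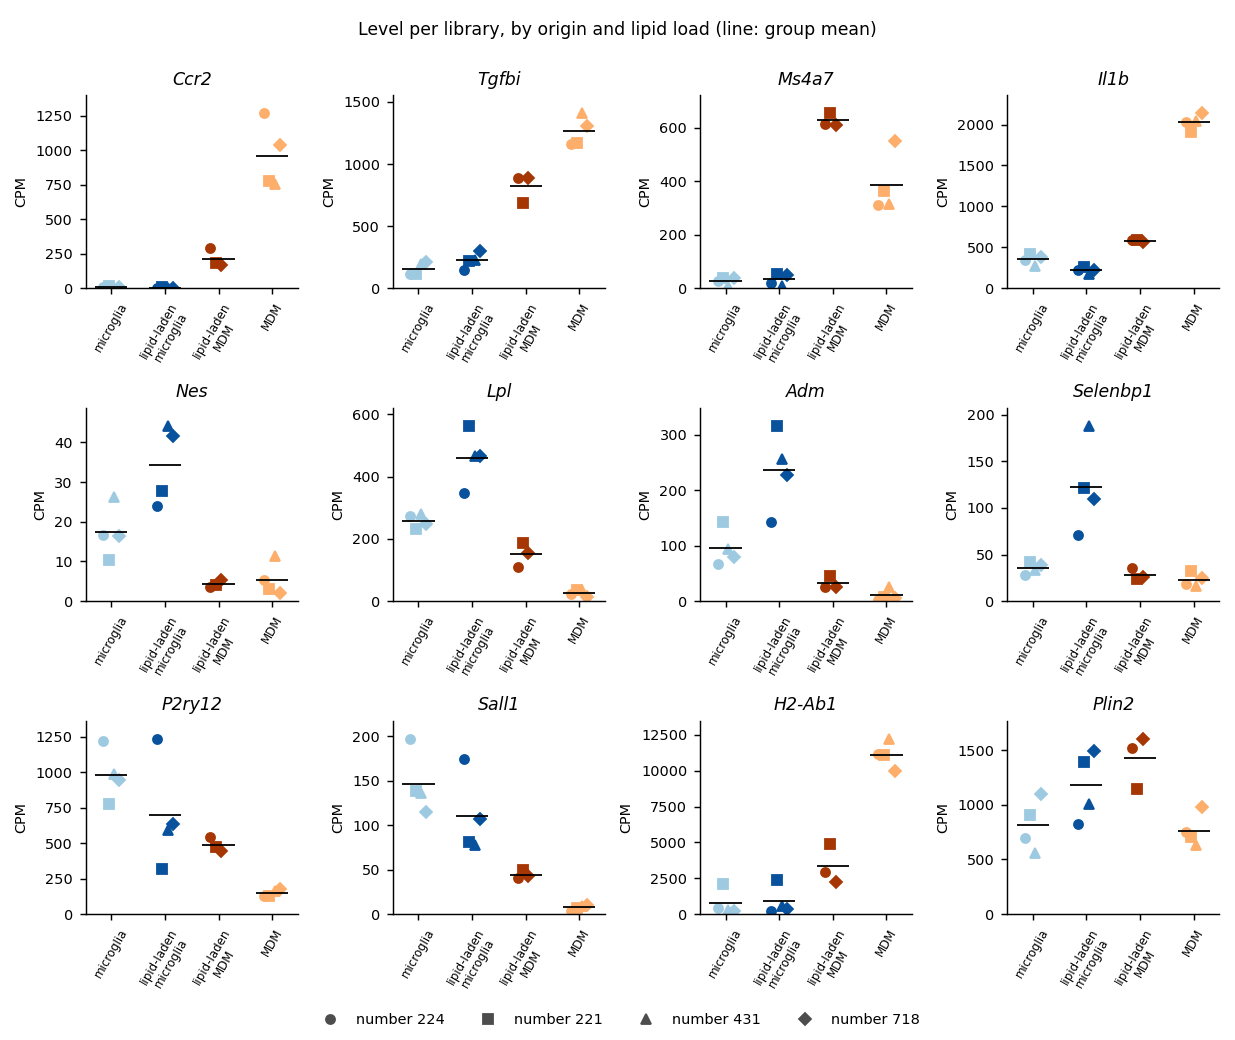
Level in CPM (vertical axis, from 0) of 12 genes in every library of the 4 groups (horizontal axis), with a symbol per number and a line at the group mean. For Ccr2, Tgfbi, Ms4a7 and Il1b the 3 lipid-laden MDM libraries lie above the 4 lipid-laden microglia libraries, for Nes, Lpl, Adm, Selenbp1 and Sall1 below them, and for P2ry12, H2-Ab1 and Plin2 the groups overlap.

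The Ms4a genes, which encode membrane-spanning proteins related to CD20, were mostly higher in MDM both with and without lipid load. Of 9 members tested, all on chromosome 19, 8 were higher in lipid-laden MDM (median log2 fold change 3.74), and the same number without lipid load (median 3.77). The difference of both origin effects was called for none by edgeR but ranged from -2.50 to 2.47 over the 9 members, which does not show equal effects. Ms4a7 (ENSMUSG00000024672, chr19:11321039-11336146) was at 615, 655 and 611 CPM in MDM and 20.6, 55.0, 9.27 and 49.1 CPM in microglia (log2 fold change 4.22, SE 0.55, edgeR adjusted p = 0.000534). The MDM libraries lay within a narrow range, and the microglia libraries with the higher levels were 221 and 718. Ms4a4a (ENSMUSG00000101389, chr19:11375523-11392790) was at 156, 113 and 129 CPM in MDM and 4.68, 21.2, 2.88 and 10.8 CPM in microglia (log2 fold change 3.74, SE 0.52, edgeR adjusted p = 0.000852), and Ms4a4c (ENSMUSG00000024675, chr19:11404770-11427246) at 169.6, 166 and 244 CPM in MDM and 31.9, 39.5, 8.03 and 27.5 CPM in microglia (log2 fold change 2.86, SE 0.40, edgeR adjusted p = 0.000913). Ms4a8a (ENSMUSG00000024730, chr19:11067471-11081102), at 8.44, 8.26 and 18.4 CPM in MDM, had a summed count of 348 over the MDM libraries and 0 over the microglia libraries. It was thus at least 154-fold higher against a floor of 3 counts over the group (edgeR adjusted p = 0.000923). These 4 calls held in all 7 fits that left out 1 library. Ms4a genes are near-identical in parts, and how shared reads were counted is not stated, so the split between members is uncertain.

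Some genes of border-associated and alternatively activated macrophages, the kinds found at the meninges, around vessels and in tissue repair, were higher too. Of 19 tested, 7 were higher and none lower by edgeR or DESeq2 (1 lower with the block), with a median log2 fold change of 2.92, and 1.84 without lipid load. Pf4, the platelet factor 4 chemokine that border-associated macrophages also make, was at 96.5, 146 and 97.9 CPM in MDM and 3.45, 16.4, 4.53 and 22.2 CPM in microglia (log2 fold change 3.28, SE 0.53, edgeR adjusted p = 0.0027). Mgl2, a galactose-binding lectin, was at 113, 144 and 31.5 CPM in MDM and 3.12, 0, 0 and 0 CPM in microglia (log2 fold change 6.99, SE 1.14, edgeR adjusted p = 0.00282), with 28 counts in all lipid-laden microglia, all of them in library 224. Clec4n, the receptor dectin-2 for fungal and other mannans, was at 235, 243 and 219 CPM in MDM and 5.68, 18.4, 3.09 and 28.1 CPM in microglia (log2 fold change 4.07, SE 0.60, edgeR adjusted p = 0.00138). F13a1, the coagulation factor XIII A chain, was at 213, 103 and 122 CPM in MDM and 4.46, 3.72, 3.71 and 30.8 CPM in microglia (log2 fold change 3.77, SE 0.85, edgeR adjusted p = 0.0251), and microglia library 718 lay well above the other 3. Arg1, the arginase gene that is a classic marker of alternative activation, did not pass, at 1881, 4697 and 1347 CPM in MDM and 473, 4632, 533 and 647 CPM in microglia (log2 fold change 0.75, SE 1.01, edgeR adjusted p = 0.817). Both libraries of number 221 were the highest of their group for Arg1. The groups overlapped through microglia library 221 alone, and without it the log2 fold change was 2.26 (edgeR adjusted p = 0.287). F13a1 was not called without MDM 224 or 718 or microglia 224, 221 or 431 (up to 0.115).

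Among the 15 largest increases were further surface receptors and enzymes of monocytes. Cd38, an enzyme that consumes NAD, was at 796, 472 and 419 CPM in MDM and 6.79, 28.4, 1.13 and 24.5 CPM in microglia (log2 fold change 5.20, SE 0.86, edgeR adjusted p = 0.00308). Plbd1, a phospholipase B-like protein of myeloid granules, was at 447, 463 and 346 CPM in MDM and 0.557, 20.0, 0 and 13.9 CPM in microglia (log2 fold change 5.59, SE 0.95, edgeR adjusted p = 0.00384). Acp5, the tartrate-resistant acid phosphatase of osteoclasts and some macrophages, was at 363, 431 and 332 CPM in MDM and 25.1, 47.4, 13.2 and 36.7 CPM in microglia (log2 fold change 3.62, SE 0.46, edgeR adjusted p = 0.000422). Between the groups there was no overlap for any of these, and microglia libraries 224 and 431 held the least Cd38 and Plbd1. Thbs1, the matrix protein thrombospondin 1, was at 1581, 546 and 1016 CPM in MDM and 34.8, 109, 57.6 and 113 CPM in microglia (log2 fold change 3.73, SE 0.47, edgeR adjusted p = 0.000441), with MDM library 224 the highest. Emb, the adhesion molecule embigin (log2 fold change 4.20, SE 0.69, edgeR adjusted p = 0.00308), Cpne2, a calcium-dependent lipid-binding protein (log2 fold change 3.47, SE 0.40, edgeR adjusted p = 0.000273), and the interferon-induced membrane protein gene Ifitm1 (log2 fold change 4.20, SE 0.36, edgeR adjusted p = 1.96e-05) were 18.3-fold, 11.1-fold and 18.4-fold higher. The lectin receptor gene Clec12a was at 115, 77.6 and 89.5 CPM in MDM and 0, 4.62, 3.40 and 8.75 CPM in microglia (log2 fold change 4.48, SE 0.97, edgeR adjusted p = 0.0194). Il1r2, the decoy receptor for interleukin 1, was at 105, 82.6 and 80.4 CPM in MDM and 0.668, 14.1, 0.206 and 4.47 CPM in microglia (log2 fold change 4.19, SE 0.93, edgeR adjusted p = 0.0228). Clec12a was not called without MDM 224 or microglia 431 (up to 0.0741). Il1r2 was not called without MDM 224 or 718 or microglia 224, 431 or 718 (up to 0.0825).

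**Figure D3:**
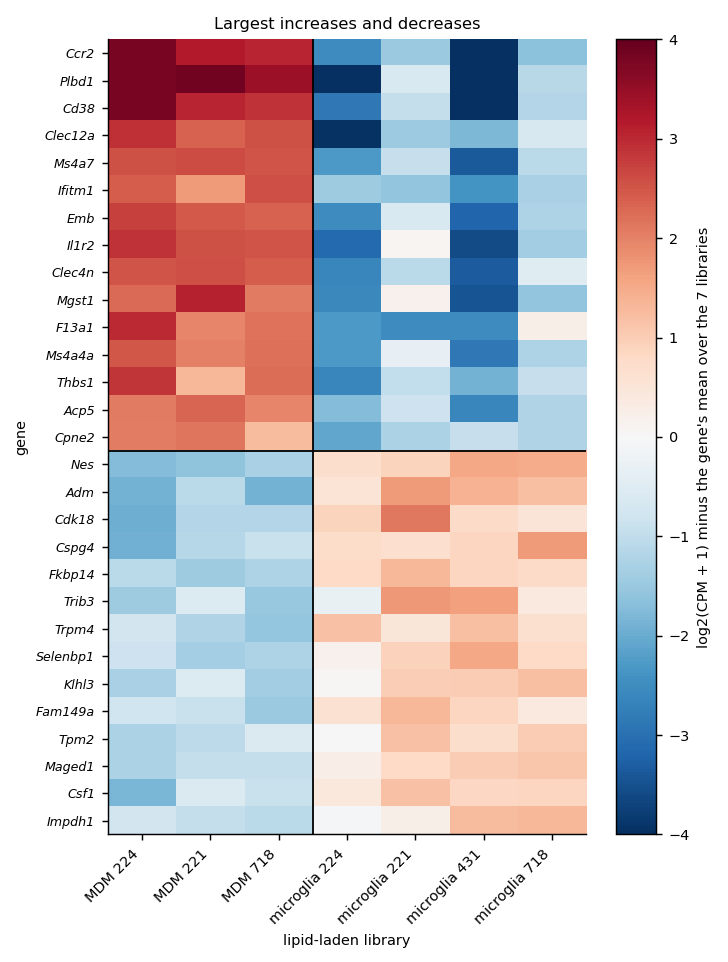
Heat map of the 15 largest increases (upper rows) and 14 of the 15 largest decreases (lower rows) in lipid-laden MDM, as log2(CPM + 1) minus the gene's mean over the 7 libraries (colour, red above and blue below the mean), with a library per column and values past either end of the scale drawn in its end colour. Within the increases the microglia columns differ among themselves, with 224 and 431 the lowest for Cd38 and Plbd1 and 718 the highest for F13a1.

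Signals and receptors of inflammation were next. Il1b, the interleukin 1 beta gene, was at 595, 590.1 and 562 CPM in MDM and 224, 259, 174 and 228 CPM in microglia (log2 fold change 1.40, SE 0.15, edgeR adjusted p = 0.000128), a difference of 2.63-fold with little spread in either group. Il10, an anti-inflammatory cytokine, was at 55.1, 33.5 and 32.2 CPM in MDM and 2.67, 1.81, 0 and 4.17 CPM in microglia (log2 fold change 4.21, SE 0.82, edgeR adjusted p = 0.00976). Cd80, a costimulatory ligand for T cells, was at 36.8, 18.1 and 15.8 CPM in MDM and 8.02, 1.81, 2.47 and 7.52 CPM in microglia (log2 fold change 2.25, SE 0.47, edgeR adjusted p = 0.0166). Both were higher in each MDM library than in any microglia library. Of the 28 cytokine and immune regulation genes tested, these 3 were higher and 1, Csf1, was lower (5 and 2 by DESeq2, median 0.34). Without lipid load Il1b stood at 2031 ± 95.0 against 357 ± 62.7 CPM in MDM and microglia, a larger origin effect (difference -1.11, SE 0.21, edgeR adjusted p = 0.00928), while Il10 had similar log2 fold changes of 4.35 without and 4.21 with lipid load (difference not called, edgeR adjusted p = 0.986). Cd80 was not called without MDM 224 or microglia 431 (up to 0.122).

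Among 31 chemokines and their receptors, 7 were higher in lipid-laden MDM and none lower by edgeR, with 1 lower by DESeq2 and 1 with the block, and the median log2 fold change was 0.66. Ccr1, a receptor for inflammatory chemokines on monocytes, was at 386, 383 and 291 CPM in MDM and 26.1, 51.9, 25.9 and 44.1 CPM in microglia (log2 fold change 3.25, SE 0.40, edgeR adjusted p = 0.000396). Ccr7, the receptor that guides dendritic and T cells to lymph nodes, was at 61.6, 23.2 and 59.8 CPM in MDM and 8.69, 5.93, 1.54 and 8.03 CPM in microglia (log2 fold change 3.00, SE 0.49, edgeR adjusted p = 0.00307), with MDM library 221 the lowest of its group. Cxcl16, a chemokine that is also a scavenger receptor for oxidised lipoprotein, was at 621, 619 and 517 CPM in MDM and 210.0, 393, 158 and 252 CPM in microglia (log2 fold change 1.21, SE 0.26, edgeR adjusted p = 0.0172). For all 3 the groups did not overlap. The count of 7 fell to 4 without microglia library 224, 431 or 718 or MDM library 224 or 221. Cxcl16 was not called without MDM 224 or 221 (up to 0.085).

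Matrix and protease genes split. Of 29, 5 were higher and 1 lower in lipid-laden MDM (6 and 3 by DESeq2, median log2 fold change -0.61), and the higher count was 3 without microglia library 224, 431 or 718 or MDM library 224. Mmp14, a membrane-bound metalloproteinase that cuts collagen, was at 209, 151 and 199.8 CPM in MDM and 29.9, 79.1, 38.7 and 61.3 CPM in microglia (log2 fold change 1.83, SE 0.30, edgeR adjusted p = 0.00312). Plaur, the urokinase receptor gene, was at 941, 822 and 689 CPM in MDM and 417, 627, 393 and 425 CPM in microglia (log2 fold change 0.81, SE 0.19, edgeR adjusted p = 0.03), where microglia library 221 came near the MDM range. Plaur was not called without MDM 224 or 221 or microglia 224, 431 or 718 (up to 0.17).

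Antigen presentation by MHC class II held fewer calls than without lipid load. Of 13 genes, 1 was called higher in lipid-laden MDM (median log2 fold change 1.87), against 12 without lipid load (median 3.43). With the number as a block 7 were called, and 6 without microglia library 221. H2-DMb2, a subunit of the H2-DM peptide exchange factor, was the one called, at 72.9, 93.6 and 64.8 CPM in MDM and 7.46, 13.9, 7.93 and 10.5 CPM in microglia (log2 fold change 2.95, SE 0.32, edgeR adjusted p = 0.000128), and its origin effect was larger without lipid load, at 627 ± 107 against 15.3 ± 6.91 CPM (difference -2.40, SE 0.43, edgeR adjusted p = 0.00763). H2-Ab1, a class II beta chain, was at 2958, 4902 and 2261 CPM in MDM and 241, 2407, 541 and 359 CPM in microglia (log2 fold change 1.93, SE 0.76, edgeR adjusted p = 0.237). Cd74, the invariant chain, was at 3039, 4974 and 1729.7 CPM in MDM and 137, 2515, 153 and 77.1 CPM in microglia (log2 fold change 2.17, SE 1.06, edgeR adjusted p = 0.358). Microglia library 221 reached the MDM range for both, and the other 3 microglia libraries were far below it. Ciita, the class II transactivator, was at 42.1, 37.9 and 18.7 CPM in MDM and 0, 16.1, 1.24 and 0 CPM in microglia (log2 fold change 2.91, SE 1.03, edgeR adjusted p = 0.181), again with library 221 the highest of the microglia. H2-Oa, an inhibitor of H2-DM, was at 33.5, 26.3 and 22.6 CPM in MDM and 21.1, 14.9, 13.3 and 9.46 CPM in microglia (log2 fold change 0.91, SE 0.29, edgeR adjusted p = 0.132), and its origin effect was larger without lipid load, at 219.8 ± 63.8 against 20.4 ± 5.96 CPM (difference -2.52, SE 0.41, edgeR adjusted p = 0.00466). With the block H2-Ab1, Cd74 and H2-Oa passed (adjusted p = 0.0234, 0.022 and 0.0215), and without microglia library 221 H2-Ab1, Cd74 and Ciita did (log2 fold changes 3.15, 4.73 and 6.25, adjusted p = 0.0228, 0.00765 and 0.00297). Class II genes are near-identical in parts, so the split of reads between them is uncertain. Dendritic cells also express class II genes, and their 5 markers summed to 96.9 to 116 CPM in lipid-laden and 516 to 1368 CPM in non-lipid-laden MDM. Their part in these values was not tested.

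Genes of conventional dendritic cells and lymphocytes were among the widest fold differences, at low levels. Of 16 dendritic cell genes, 8 were higher and none lower by edgeR or DESeq2 (median log2 fold change 2.93), and 5 without microglia library 431 or 718. Dpp4, a peptidase of cDC1 and T cells, was at 34.8, 48.8 and 24.5 CPM in MDM and had a summed count of 1024 over the MDM libraries and 0 over the microglia libraries (at least 454-fold higher, edgeR adjusted p = 0.000309). Itgae, the integrin CD103, was at 29.6, 41.0 and 21.0 CPM in MDM and 1.56, 0, 0 and 1.53 CPM in microglia (log2 fold change 5.30, SE 0.96, edgeR adjusted p = 0.00676). Among 17 genes of T and NK cells, 6 were higher and none lower by edgeR or DESeq2 (median 3.73), 4 without microglia library 221 and 3 without microglia library 431. Gzma, a granzyme of cytotoxic cells, was at 10.4, 17.4 and 16.2 CPM in MDM, with a summed count of 425 over the MDM libraries and 0 over the microglia libraries (at least 189-fold higher, edgeR adjusted p = 0.0027), and Il2rb, an interleukin 2 receptor chain, at 9.74, 8.04 and 16.9 CPM, with a summed count of 342 over the MDM libraries and 0 over the microglia libraries (at least 152-fold higher, edgeR adjusted p = 0.00677). Igha, the IgA heavy chain of plasma cells, had a summed count of 106 over the MDM libraries and 0 over the microglia libraries (a bound of at least 47.0-fold, edgeR adjusted p = 0.00105). These 5 genes kept their calls in all fits that left out 1 library. How far dendritic cells and lymphocytes in the MDM libraries take part in these values was not tested.

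Of 8 genes of the kynurenine route, along which tryptophan is broken down, 3 were higher, the enzymes Kmo and Kynu and the receptor Ahr (list median log2 fold change 0.27), and the same 3 in every fit that left out 1 library. Kmo, the kynurenine hydroxylase, was at 32.3, 41.5 and 16.4 CPM in MDM and had a summed count of 850 over the MDM libraries and 1 over the microglia libraries (ratio 1132, 95% counting interval 203 to 44747, edgeR adjusted p = 1.29e-05). Kynu, the kynureninase, was at 22.7, 42.2 and 19.1 CPM in MDM, with a summed count of 795 over the MDM libraries and 0 over the microglia libraries (at least 353-fold higher, edgeR adjusted p = 0.000131). Ahr, the receptor that kynurenine binds, was at 42.4, 25.6 and 5.01 CPM in MDM and 0, 0, 1.34 and 0.203 CPM in microglia (log2 fold change 5.92, SE 1.01, edgeR adjusted p = 0.00384), with MDM library 718 well below the other 2. Without lipid load Kynu was at 72.5 ± 22.2 against 2.64 ± 2.13 CPM, a smaller origin effect by the test of the difference (edgeR adjusted p = 0.0348), whose fitted size depends on the prior count. For Kynu the difference was not called with any library left out except non-lipid-laden MDM 221 and non-lipid-laden microglia 431 and 718 (up to 0.0704). Kmo is also on the dendritic cell list, and the levels of these genes lay beside the summed dendritic markers given above (96.9 to 116 CPM in MDM), whose part in them was not tested. Timd4, a phosphatidylserine receptor for dying cells, was at 2.16, 2.20 and 2.74 CPM, with a summed count of 69 over the MDM libraries and 0 over the microglia libraries (at least 30.6-fold higher, edgeR adjusted p = 0.0206). Timd4 was not called without MDM 224 (0.0579). Neutrophil genes were not called (0 of 8 by edgeR or DESeq2, 1 at an unadjusted p under 0.05). Retnlg, a neutrophil secreted protein, rested on MDM library 224, at 256, 5.29 and 3.78 CPM in MDM and 9.80, 1.31, 0 and 0.305 CPM in microglia (log2 fold change 4.96, SE 1.44, edgeR adjusted p = 0.0857), and passed with no filter on low counts and without microglia library 224 (log2 fold change 7.31, adjusted p = 0.0271).

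Few genes that mark homeostatic microglia passed the test between the lipid-laden groups. Of 24, 3 were lower in lipid-laden MDM by edgeR (8 by DESeq2) and none higher by either (1 higher with the block), and 12 were at an unadjusted p under 0.05. For 9 of the 24 every MDM library was below every microglia library, beside 5.17% of all genes. The list had a median log2 fold change of -0.80 with 23 of 24 negative, against 24 lower and a median of -2.60 without lipid load. The difference of both origin effects was called for 14, all smaller with lipid load, beside 1.60% of all genes called in that direction. All 24 were called lower without lipid load, and the test reuses those libraries, which favours a smaller effect. The direction is therefore given as a description. P2ry12 (ENSMUSG00000036353, chr3:59216272-59262871), a purinergic receptor of resting microglia, was at 541, 476 and 447 CPM in MDM and 1238, 320.5, 594 and 636 CPM in microglia (log2 fold change -0.51, SE 0.31, edgeR adjusted p = 0.495). Microglia library 221 was below all MDM libraries and the other 3 were above them, and without 221 the log2 fold change was -0.75 (edgeR adjusted p = 0.141). Without lipid load P2ry12 was at 147 ± 24.8 CPM in non-lipid-laden MDM and 979.8 ± 183 CPM in non-lipid-laden microglia (difference 2.22, SE 0.42, edgeR adjusted p = 0.0106). Tmem119 (ENSMUSG00000054675, chr5:113793729-113800516), a microglial surface protein, was at 935, 712 and 1135 CPM in MDM and 1731, 575, 1484 and 1236 CPM in microglia (log2 fold change -0.44, SE 0.32, edgeR adjusted p = 0.598), again with microglia library 221 the lowest of all 7 and the other 3 above all MDM libraries. Without 221 its log2 fold change was -0.68 (edgeR adjusted p = 0.226). Without lipid load Tmem119 was at 318 ± 111 against 1661 ± 267 CPM (difference 1.95, SE 0.43, edgeR adjusted p = 0.0256).

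The 3 genes called lower were Sall1, Golm1 and Ecscr. Sall1 (ENSMUSG00000031665, chr8:89027235-89044162), a transcription factor of microglial identity, was at 40.2, 49.7 and 43.0 CPM in MDM and 175, 81.2, 77.5 and 107 CPM in microglia (log2 fold change -1.31, SE 0.32, edgeR adjusted p = 0.0362), below in every MDM library, and at 7.54 ± 2.69 against 147 ± 35.5 CPM without lipid load (difference 2.97, SE 0.43, edgeR adjusted p = 0.00314). Golm1, a Golgi membrane protein, was at 274, 259.7 and 354 CPM in MDM and 673, 478, 743 and 693 CPM in microglia (log2 fold change -1.13, SE 0.26, edgeR adjusted p = 0.0315). Ecscr, a small surface protein also found in endothelium, was at 17.2, 33.9 and 38.5 CPM in MDM and 114, 53.3, 95.1 and 81.1 CPM in microglia (log2 fold change -1.52, SE 0.39, edgeR adjusted p = 0.0468), and at 5.66 ± 2.78 against 82.4 ± 21.5 CPM without lipid load (difference 2.34, SE 0.52, edgeR adjusted p = 0.0245). Selplg, the P-selectin ligand, was at 647, 678 and 774 CPM in MDM and 1400.2, 814, 1151 and 991 CPM in microglia and missed the threshold (log2 fold change -0.64, SE 0.19, edgeR adjusted p = 0.0921), but passed with the block (adjusted p = 0.0401), with DESeq2 and without microglia library 221 (adjusted p = 0.0363). Sall1 was not called without MDM 224, 221 or 718 or microglia 224 or 718 (up to 0.179). Golm1 was not called without MDM 224, 221 or 718 or microglia 224, 431 or 718 (up to 0.164). Ecscr was not called without MDM 224, 221 or 718 or microglia 224, 431 or 718 (up to 0.24). The list count was 0 without microglia library 224 or 718 or without any MDM library, and 4 without microglia library 221. For Tmem119 the difference was not called without lipid-laden MDM 224 or 718 or non-lipid-laden microglia 224 (up to 0.0818). For Ecscr the difference was not called without lipid-laden MDM 221 or 718, non-lipid-laden MDM 224 or non-lipid-laden microglia 224 or 718 (up to 0.0799).

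Genes common to macrophages of both origins were mostly not called. Of 14, 2 were higher in lipid-laden MDM, Lyz2 and Ptprc (median log2 fold change 0.05). Lyz2, the myeloid lysozyme, was at 4907, 4044 and 4519 CPM in MDM and 1627, 1742, 1148 and 1676 CPM in microglia (log2 fold change 1.54, SE 0.19, edgeR adjusted p = 0.000422), and the groups did not overlap. Ptprc, the pan-leukocyte phosphatase CD45, was at 992, 638 and 716 CPM in MDM and 537, 499.8, 442 and 455 CPM in microglia (log2 fold change 0.69, SE 0.18, edgeR adjusted p = 0.0475). Csf1r, the receptor on which macrophages of both kinds depend for survival, was at 2835, 1763 and 2559.7 CPM in MDM and 3521, 1656, 2527 and 3011 CPM in microglia and overlapped (log2 fold change -0.17, SE 0.21, edgeR adjusted p = 0.802), and without microglia library 221 its log2 fold change was -0.34 (edgeR adjusted p = 0.388). Itgam, the integrin CD11b, was at 277, 282 and 296 CPM in MDM and 523, 392, 399.8 and 369.6 CPM in microglia, lower in each MDM library, and missed the threshold (log2 fold change -0.56, SE 0.15, edgeR adjusted p = 0.0514), but passed with the block (adjusted p = 0.0395), DESeq2, limma-voom, other size factors and a stricter filter. The origin effects of Csf1r (1265 ± 107 against 3129.7 ± 406 CPM) and Itgam (161 ± 18.5 against 447 ± 48.7 CPM) were larger without lipid load (difference 1.14, SE 0.29, edgeR adjusted p = 0.0485, and difference 0.91, SE 0.20, edgeR adjusted p = 0.0213, respectively). Ptprc was not called without MDM 224 or 718 or microglia 224, 221, 431 or 718 (up to 0.3). For Csf1r the difference was not called with any library left out except lipid-laden MDM 221, lipid-laden microglia 224 and 221 and non-lipid-laden microglia 221 (up to 0.128). For Itgam the difference was not called without lipid-laden MDM 718 or non-lipid-laden microglia 224 or 718 (up to 0.069).

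Of 30 transcription factors tied to macrophage identity, 2 were higher and Sall1 was lower by edgeR (4 and 2 by DESeq2). Nr1h3, which encodes the oxysterol receptor LXR alpha, was at 32.9, 41.6 and 42.1 CPM in MDM and 1.67, 9.24, 3.19 and 5.39 CPM in microglia (log2 fold change 2.99, SE 0.73, edgeR adjusted p = 0.0385). Bhlhe40, a repressor active in inflammatory macrophages, was at 574, 299 and 341 CPM in MDM and 165, 258, 116 and 217 CPM in microglia (log2 fold change 1.10, SE 0.25, edgeR adjusted p = 0.0288). Bhlhe40 differed more without lipid load, at 1386 ± 209 against 147 ± 23.3 CPM (difference -2.14, SE 0.36, edgeR adjusted p = 0.00522). Both groups were separate for each gene, with microglia library 221 the highest of its group. Nr1h3 was not called without MDM 224, 221 or 718 or microglia 224, 431 or 718 (up to 0.109). Bhlhe40 was not called without MDM 224 or microglia 224 or 431 (up to 0.223).

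Transcripts of glioma and progenitor cells had negative log2 fold changes in lipid-laden MDM for all 17 genes of the list (median -1.39). Of these, Nes, Cspg4 and Pdgfb were called lower and none higher by edgeR or DESeq2, and 15 were lower without lipid load (median -4.35). Nes (ENSMUSG00000004891, chr3:87971078-87980451), the intermediate filament nestin of neural progenitors, whose cells carry the oncogene in this model, was at 3.57, 3.97 and 5.29 CPM in MDM and 23.9, 27.6, 44.2 and 41.6 CPM in microglia (log2 fold change -3.00, SE 0.55, edgeR adjusted p = 0.00689). Cspg4, the proteoglycan NG2 of oligodendrocyte progenitors, was at 5.30, 9.80 and 11.9 CPM in MDM and 38.8, 37.2, 42.2 and 76.2 CPM in microglia (log2 fold change -2.43, SE 0.57, edgeR adjusted p = 0.0321), with microglia library 718 the highest. Pdgfb, the oncogene of the model and a gene that macrophages can express, was at 22.7, 34.7 and 42.4 CPM in MDM and 105, 70.8, 90.4 and 76.0 CPM in microglia (log2 fold change -1.36, SE 0.31, edgeR adjusted p = 0.0283). Its relative Pdgfa was at 30.1, 36.6 and 31.0 CPM in MDM and 46.9, 66.4, 89.6 and 59.6 CPM in microglia (log2 fold change -1.01, SE 0.24, edgeR adjusted p = 0.0328) and lost its call with the block (adjusted p = 0.0522). Whether reads of the introduced Pdgfb were counted with those of the mouse gene is not given in the sources used here. The 5 defining markers Pdgfra, Olig1, Cspg4, Ptprz1 and Sox2 summed to 55.0, 87.8 and 115 CPM in MDM libraries 224, 221 and 718 and to 145, 229, 116 and 359 CPM in the microglia libraries, and the part of tumour cells or their RNA in these differences was not tested. Nes was not called without MDM 224 (0.0542). Cspg4 was not called without MDM 224, 221 or 718 or microglia 431 or 718 (up to 0.178). Pdgfb was not called without MDM 224 or 221 or microglia 224 or 431 (up to 0.17). Pdgfa was not called without MDM 224, 221 or 718 or microglia 221, 431 or 718 (up to 0.164). Without MDM library 224 the list held no call.

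Genes of lipid-associated macrophages were called in both directions. Of 26 genes of disease-associated microglia and lipid-associated macrophages, 3 were higher and 5 lower in lipid-laden MDM (5 and 5 by DESeq2, median log2 fold change -0.19), and 1 and 1 without MDM library 224. Lpl (ENSMUSG00000015568, chr8:68880491-68907448), the lipase that frees fatty acids from lipoproteins, was at 108, 187 and 155 CPM in MDM and 349, 563, 466 and 466 CPM in microglia (log2 fold change -1.62, SE 0.28, edgeR adjusted p = 0.00392), below in all MDM libraries. Cst7, the cathepsin inhibitor cystatin F, was at 94.9, 132 and 149.9 CPM in MDM and 427, 222, 421 and 319 CPM in microglia (log2 fold change -1.47, SE 0.27, edgeR adjusted p = 0.00736). Csf1, the ligand of Csf1r, was at 34.6, 84.1 and 67.6 CPM in MDM and 168, 285, 225 and 229 CPM in microglia (log2 fold change -1.87, SE 0.44, edgeR adjusted p = 0.0327). In the other direction, Axl, a receptor for dying cells, was at 544, 257 and 484 CPM in MDM and 142, 160.4, 107 and 169 CPM in microglia (log2 fold change 1.57, SE 0.23, edgeR adjusted p = 0.0014). Lgals1, galectin 1, was at 349, 335 and 310.3 CPM in MDM and 110.2, 199, 118 and 192 CPM in microglia (log2 fold change 1.10, SE 0.21, edgeR adjusted p = 0.00913). Lpl was lower in MDM by more without lipid load, at 27.0 ± 10.5 against 257 ± 22.3 CPM (difference 1.64, SE 0.36, edgeR adjusted p = 0.0245). Cst7 was not called without MDM 224 (0.0601). Csf1 was not called without MDM 224 or 718 or microglia 221, 431 or 718 (up to 0.182). Lgals1 was not called without MDM 224 (0.0512). For Lpl the difference was not called without lipid-laden MDM 221 or 718, non-lipid-laden MDM 224 or non-lipid-laden microglia 224 (up to 0.0672).

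Genes commonly used to name lipid-laden cells did not pass. Plin2 (ENSMUSG00000028494, chr4:86648386-86670060), which coats lipid droplets, was at 1522, 1149 and 1608 CPM in MDM and 825, 1392, 1009 and 1493 CPM in microglia (log2 fold change 0.27, SE 0.24, edgeR adjusted p = 0.684). Gpnmb, a glycoprotein of lipid-associated macrophages, was at 826, 464 and 981 CPM in MDM and 149, 1293, 366 and 843 CPM in microglia (log2 fold change 0.19, SE 0.73, edgeR adjusted p = 0.952), with microglia libraries from below to above all MDM libraries, and without microglia library 221 the log2 fold change was 0.74 (edgeR adjusted p = 0.718). Spp1, osteopontin, was at 6010.0, 3533 and 5153 CPM in MDM and 2518, 2906, 3990.4 and 5109.6 CPM in microglia (log2 fold change 0.43, SE 0.29, edgeR adjusted p = 0.561). Trem2, the lipid-sensing receptor, was at 751, 770.2 and 884 CPM in MDM and 1185, 746, 908 and 823 CPM in microglia (log2 fold change -0.19, SE 0.16, edgeR adjusted p = 0.661), and it was lower in MDM without lipid load, at 318 ± 31.9 against 909 ± 118 CPM, a difference that was called (difference 1.32, SE 0.22, edgeR adjusted p = 0.00474). Apoe, the lipid carrier of the brain, was higher in each MDM library, at 19606, 14783 and 16286 CPM in MDM and 13228, 10977, 9283 and 12518 CPM in microglia, and missed the threshold (log2 fold change 0.55, SE 0.16, edgeR adjusted p = 0.0754), but passed with the block (adjusted p = 0.0475), DESeq2 and limma-voom. Cd36, a fatty acid and oxidised lipoprotein receptor, was at 44.1, 213 and 30.0 CPM in MDM and 10.1, 349, 22.4 and 19.6 CPM in microglia (log2 fold change -0.06, SE 1.31, edgeR adjusted p = 0.994). Its libraries of number 221 were the highest of both groups, and without microglia library 221 the log2 fold change was 2.46 (adjusted p = 0.372). Of 17 lipid droplet genes, edgeR, DESeq2 and limma-voom called none, and 2 were at an unadjusted p under 0.05 (median log2 fold change -0.02).

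Of 20 lipid uptake genes 2, Axl and Cxcl16, were higher and 1, Lpl, was lower. Of 18 cholesterol efflux genes and LXR targets, Nr1h3 and Pltp were higher and Scd2 was lower. Pltp, the phospholipid transfer protein, was at 107, 68.5 and 121 CPM in MDM and 14.6, 16.0, 7.52 and 29.0 CPM in microglia (log2 fold change 2.56, SE 0.39, edgeR adjusted p = 0.00178). Scd2, a fatty acid desaturase, was at 217, 170.3 and 189 CPM in MDM and 366, 279, 368 and 356 CPM in microglia (log2 fold change -0.83, SE 0.16, edgeR adjusted p = 0.0104), and microglia library 221 was the lowest of its group. Abca1, the cholesterol efflux transporter, was at 770.3, 420.1 and 699.7 CPM in MDM and 594, 634, 625 and 690.5 CPM in microglia (log2 fold change -0.01, SE 0.17, edgeR adjusted p = 0.989) and overlapped, while without lipid load it was at 252 ± 7.92 against 546 ± 70.9 CPM (difference 1.10, SE 0.23, edgeR adjusted p = 0.019). Cholesterol synthesis (24 genes, 3 at an unadjusted p under 0.05) and fatty acid oxidation (23 genes, 3) held no call by edgeR, and DESeq2 called 0 and 2. Scd2 was not called without MDM 718 (0.0513). For Abca1 the difference was not called without lipid-laden MDM 224 or 718 (up to 0.0733).

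Lysosomal genes and heme handling gave single calls. Of 37 lysosome genes 3, Acp5, Gm2a and Psap, were higher and 1, Ctsl, was lower (3 and 4 by DESeq2, median log2 fold change 0.06), and the higher count was 1 without MDM library 224 or microglia library 431. Gm2a, the activator that presents gangliosides for breakdown, was at 1478, 1191 and 1153 CPM in MDM and 938, 781, 703 and 804 CPM in microglia (log2 fold change 0.66, SE 0.13, edgeR adjusted p = 0.0135). Psap, the precursor of the saposins, was at 1852, 1046 and 2156 CPM in MDM and 1033, 804, 1027 and 974 CPM in microglia (log2 fold change 0.81, SE 0.20, edgeR adjusted p = 0.0427). Psap lost its call with the block (adjusted p = 0.0526). Ctsl, cathepsin L, was at 1449, 1739 and 1818 CPM in MDM and 3091, 2237, 2541 and 2705 CPM in microglia (log2 fold change -0.66, SE 0.13, edgeR adjusted p = 0.0132). Hmox1, which degrades heme, was the one gene called of 18 in the NRF2 and iron list, at 1246, 1248 and 1500.0 CPM in MDM and 1808, 2238, 2568 and 2948 CPM in microglia (log2 fold change -0.84, SE 0.17, edgeR adjusted p = 0.0132), lower in all MDM libraries. The origin effects of Ctsl (706 ± 66.9 against 2492 ± 227 CPM without lipid load), Gm2a (2389 ± 212 against 847 ± 90.7 CPM) and Hmox1 (392 ± 48.1 against 1341 ± 188 CPM) were larger without lipid load (differences 1.15, -0.84 and 0.93, edgeR adjusted p = 0.00388, 0.0246 and 0.0404). Gm2a was not called without MDM 224 or microglia 431 (up to 0.0996). Psap was not called without MDM 224 or 718 or microglia 224, 221, 431 or 718 (up to 0.21). Ctsl was not called without MDM 224 (0.0996). Hmox1 was not called without MDM 224 or 221 (up to 0.0947). For Gm2a the difference was not called without lipid-laden MDM 718, non-lipid-laden MDM 224 or non-lipid-laden microglia 718 (up to 0.0853). For Hmox1 the difference was not called with any library left out except lipid-laden microglia 718 and non-lipid-laden microglia 431 (up to 0.142).

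Glycolysis and the response to low oxygen held more calls lower in lipid-laden MDM than any other of the 44 lists. The lists were chosen with earlier results of these data known, so this rank is a description only. When oxygen falls, the factor HIF-1 accumulates, binds a short core motif in DNA and raises glucose transporters, glycolytic enzymes and vascular peptides. Of 28 such genes, 26 had a negative log2 fold change in lipid-laden MDM (median -0.69), against 52.3% of all genes tested. By edgeR 8 were called lower, beside 0.579% of all genes, and 1, Bhlhe40, higher. To show where the core lies, the 250 bases before the start site are printed for 4 of the 8 genes called lower, from the RefSeq promoter table (GRCm38.p6, 5′ to 3′ on the gene's strand), with every match of the core ACGTG or GCGTG on either strand in capitals (a match on the other strand reads as the reverse complement, and overlapping matches are joined).
Adm, which encodes the vasodilator adrenomedullin (chr7:110627407-110627656, plus strand): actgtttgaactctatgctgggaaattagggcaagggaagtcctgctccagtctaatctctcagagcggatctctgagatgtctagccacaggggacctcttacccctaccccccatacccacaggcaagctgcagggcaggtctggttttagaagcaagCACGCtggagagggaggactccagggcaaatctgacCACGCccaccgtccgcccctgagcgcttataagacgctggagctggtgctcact
Ankrd37, a hypoxia-induced ankyrin repeat protein (chr8:45999851-46000100, minus strand): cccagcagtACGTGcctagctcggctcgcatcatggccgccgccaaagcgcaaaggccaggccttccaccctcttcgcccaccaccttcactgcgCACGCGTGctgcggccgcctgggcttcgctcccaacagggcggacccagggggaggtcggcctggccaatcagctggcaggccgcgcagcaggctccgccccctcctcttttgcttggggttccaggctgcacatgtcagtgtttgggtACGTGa
Slc2a1, the glucose transporter GLUT1 (chr4:119108495-119108744, plus strand): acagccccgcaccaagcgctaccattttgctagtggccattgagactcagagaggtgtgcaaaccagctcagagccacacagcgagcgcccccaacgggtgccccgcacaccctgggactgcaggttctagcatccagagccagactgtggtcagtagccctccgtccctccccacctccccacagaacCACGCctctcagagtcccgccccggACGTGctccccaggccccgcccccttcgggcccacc
Pgk1, phosphoglycerate kinase (chrX:106186850-106187099, plus strand): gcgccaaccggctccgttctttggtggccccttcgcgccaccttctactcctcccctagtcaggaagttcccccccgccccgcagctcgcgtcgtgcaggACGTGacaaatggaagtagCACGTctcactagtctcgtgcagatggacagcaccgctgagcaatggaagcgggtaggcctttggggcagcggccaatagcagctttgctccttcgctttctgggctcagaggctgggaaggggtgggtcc
Such a match is a description, not a site. The core was found in 38.6% of all 32851 windows, in 53.4% of the windows of tested genes, in 24 of 33 windows (72.7%) of the 24 matched list members, in 39.8% of the windows of genes called lower and in 43.9% of those of genes called higher in lipid-laden MDM. Of the 8 members called lower, 7 matched the table and 6 of these had the core in at least 1 window, while Tpi1 had none. Ndrg1 had no entry.

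Adm was at 25.5, 45.4 and 25.1 CPM in MDM and 143, 316, 256 and 227 CPM in microglia (log2 fold change -2.88, SE 0.58, edgeR adjusted p = 0.013). Ankrd37 was at 5.30, 8.92 and 6.42 CPM in MDM and 15.3, 24.7, 20.9 and 21.96 CPM in microglia (log2 fold change -1.59, SE 0.33, edgeR adjusted p = 0.0145). Both were separate between the groups, and MDM library 221 was the highest of its group for each. Slc2a1 was at 232, 341 and 229.7 CPM in MDM and 325, 835, 745 and 636 CPM in microglia (log2 fold change -1.25, SE 0.26, edgeR adjusted p = 0.0156), where microglia library 224 fell within the MDM range and the other 3 were above it. Ndrg1, a hypoxia-induced differentiation gene, was at 18.9, 29.4 and 25.7 CPM in MDM and 23.6, 112, 104 and 71.6 CPM in microglia (log2 fold change -1.66, SE 0.41, edgeR adjusted p = 0.0396), with the same overlap at microglia library 224. Among the glycolytic enzymes, Pgk1 was at 239, 404 and 296 CPM in MDM and 434, 665, 636 and 563 CPM in microglia (log2 fold change -0.88, SE 0.21, edgeR adjusted p = 0.0355). Tpi1, triosephosphate isomerase, was at 688, 923 and 911 CPM in MDM and 1023, 1625, 1618 and 1589 CPM in microglia (log2 fold change -0.80, SE 0.19, edgeR adjusted p = 0.0314). Pkm, pyruvate kinase (log2 fold change -0.63, SE 0.15, edgeR adjusted p = 0.0327), and Aldoa, aldolase A (log2 fold change -0.61, SE 0.15, edgeR adjusted p = 0.0437), were 1.55-fold and 1.53-fold lower. In every number-matched pair the MDM library was below the microglia library for these 8 genes, and microglia library 224 was the lowest of its group.

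**Figure D4:**
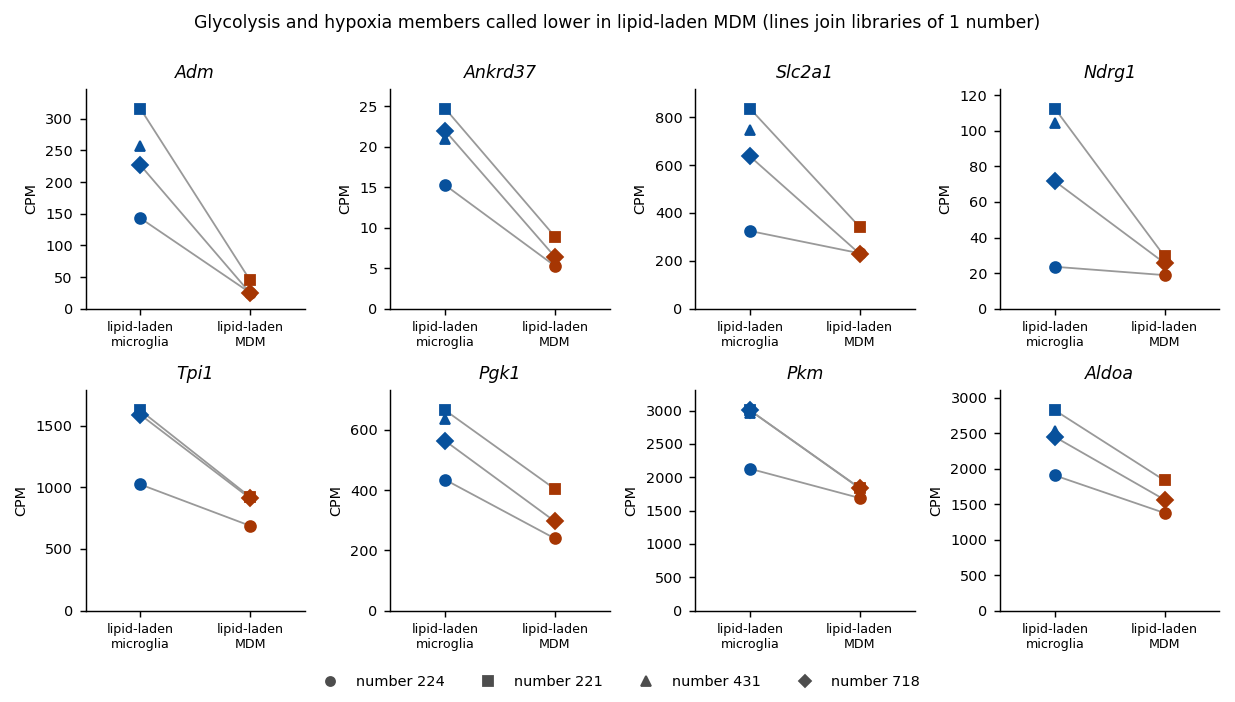
Level in CPM (vertical axis, from 0) of the 8 glycolysis and hypoxia genes called lower in lipid-laden MDM, by group (horizontal axis), with lines that join libraries of 1 number. Every line falls from lipid-laden microglia to lipid-laden MDM, by the fewest CPM for number 224, and microglia library 431 (triangle) has no MDM partner.

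The number of these calls depended on the fit more than the direction did. It was 19 with the number as a block and 19 with DESeq2, 1 without MDM library 224 or 718 and 3 without microglia library 221, and 16 at most among the fits that left out 1 library. Adm was not called without MDM 224 or 718 (up to 0.0917). Ankrd37 was not called without MDM 224 or 718 (up to 0.103). Slc2a1 was not called without MDM 224 or 718 (up to 0.105). Ndrg1 was not called without MDM 224, 221 or 718 or microglia 221, 431 or 718 (up to 0.214). Tpi1 was not called without MDM 224, 221 or 718 or microglia 221, 431 or 718 (up to 0.194). Pgk1 was not called without MDM 224 or 718 or microglia 221, 431 or 718 (up to 0.219). Pkm was not called without MDM 224, 221 or 718 or microglia 221, 431 or 718 (up to 0.173). Aldoa was not called without MDM 224 or 718 or microglia 221, 431 or 718 (up to 0.252). Without lipid load 4 of the 28 were higher and 6 lower in MDM (median -0.22). The difference of both origin effects was called for 7, all in the negative direction, beside 0.930% of all genes. Ndrg1 was at 88.5 ± 14.8 CPM in non-lipid-laden MDM and 19.4 ± 6.42 CPM in non-lipid-laden microglia, so that it was higher in MDM without and lower with lipid load (difference -3.85, SE 0.56, edgeR adjusted p = 0.00314). Ankrd37 was at 15.1 ± 2.51 against 9.43 ± 1.58 CPM (difference -2.27, SE 0.44, edgeR adjusted p = 0.011), with an uncalled positive log2 fold change there (0.68, edgeR adjusted p = 0.106). These 2 differences held in all fits that left out 1 library. The summed level of the list was 12220, 17137 and 12590 CPM in MDM libraries 224, 221 and 718 and 13608, 25259, 19212 and 19338 CPM in microglia libraries 224, 221, 431 and 718.

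Other genes among the largest decreases belonged to no list. Selenbp1, a selenium-binding methanethiol oxidase, was at 35.0, 23.8 and 26.3 CPM in MDM and 71.3, 122, 188 and 110.0 CPM in microglia (log2 fold change -2.11, SE 0.32, edgeR adjusted p = 0.00173), and it did not pass without lipid load (-0.65, edgeR adjusted p = 0.111, difference not called). Maged1, a regulator of cell death, was at 101, 127 and 126 CPM in MDM and 298, 426, 501 and 527 CPM in microglia (log2 fold change -1.89, SE 0.28, edgeR adjusted p = 0.00121). Cdk18, a cyclin-dependent kinase, was at 2.49, 5.07 and 5.01 CPM in MDM and 24.3, 57.4, 22.1 and 18.3 CPM in microglia (log2 fold change -2.86, SE 0.72, edgeR adjusted p = 0.0447), with microglia library 221 the highest of its group. For these 3 genes every MDM library was below every microglia library, and so it was for the next 2. Trpm4, a calcium-activated cation channel, was at 6.81, 4.63 and 3.50 CPM in MDM and 28.5, 17.2, 28.8 and 19.2 CPM in microglia (log2 fold change -2.23, SE 0.48, edgeR adjusted p = 0.0179). Trib3, a pseudokinase of the stress response, was at 4.22, 8.59 and 3.97 CPM in MDM and 10.6, 46.2, 43.3 and 17.7 CPM in microglia (log2 fold change -2.40, SE 0.61, edgeR adjusted p = 0.0468) and lost its call with the block (adjusted p = 0.0627). The prolyl isomerase gene Fkbp14 (-2.40), the ubiquitin ligase adaptor Klhl3 (-2.06), Fam149a (-2.01), the tropomyosin Tpm2 (-1.94) and Impdh1, an enzyme of guanine nucleotide synthesis (-1.82), were lower with edgeR adjusted p of 0.0229 to 0.0487, and their groups did not overlap. Cdk18 was not called with any of the 7 libraries left out (up to 0.223). Trpm4 was not called without MDM 221 or 718 or microglia 431 (up to 0.0926). Trib3 was not called without MDM 224, 221 or 718 or microglia 221, 431 or 718 (up to 0.222). Fkbp14 was not called with any of the 7 libraries left out (up to 0.164). Klhl3 was not called without MDM 224 or 718 or microglia 221, 431 or 718 (up to 0.178). Fam149a was not called without MDM 224, 221 or 718 or microglia 221 or 431 (up to 0.135). Tpm2 was not called without MDM 224, 221 or 718 or microglia 221, 431 or 718 (up to 0.232). Impdh1 was not called without MDM 224, 221 or 718 or microglia 431 or 718 (up to 0.103).

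Further lists gave 1 or 2 calls. Cfp, properdin, was the 1 of 20 complement genes called by edgeR (4 by DESeq2, 3 by limma-voom and 4 with the block), at 230.2, 236 and 254 CPM in MDM and 7.57, 19.3, 10.6 and 50.8 CPM in microglia (log2 fold change 3.44, SE 0.48, edgeR adjusted p = 0.000824), and S100a11, a calcium-binding protein, the 1 of 16 S100 and annexin genes (2 by DESeq2, 4 by limma-voom and 2 with the block), at 41.8, 30.4 and 31.4 CPM in MDM and 2.90, 7.73, 3.50 and 11.7 CPM in microglia (log2 fold change 2.41, SE 0.38, edgeR adjusted p = 0.00242). Both were higher in all MDM libraries and differed more without lipid load, Cfp at 1145 ± 91.0 against 16.2 ± 6.24 CPM (difference -2.70, SE 0.64, edgeR adjusted p = 0.0354) and S100a11 at 140.2 ± 14.5 against 4.58 ± 1.72 CPM (difference -2.51, SE 0.53, edgeR adjusted p = 0.0197). P2rx4, an ATP-gated channel, was at 527, 447 and 498 CPM in MDM and 251, 321, 231 and 325 CPM in microglia (log2 fold change 0.80, SE 0.19, edgeR adjusted p = 0.0303). Adora2b, an adenosine receptor, was at 24.4, 8.81 and 21.7 CPM in MDM and 3.34, 1.71, 0 and 5.19 CPM in microglia (log2 fold change 2.84, SE 0.70, edgeR adjusted p = 0.0396), 2 of 15 purinergic genes. Btg2, an antiproliferative immediate early gene, was at 589.5, 379.7 and 502 CPM in MDM and 374, 191, 262 and 271 CPM in microglia (log2 fold change 0.84, SE 0.21, edgeR adjusted p = 0.0427), 1 of 23 immediate early and dissociation genes, and mt-Nd5, a mitochondrially encoded subunit of complex I, at 314, 405 and 431 CPM in MDM and 759, 675, 790.1 and 605 CPM in microglia (log2 fold change -0.88, SE 0.20, edgeR adjusted p = 0.0253). It was 1 of 10 mitochondrially encoded genes called by edgeR (4 by DESeq2), while all 10 had a negative log2 fold change (median -0.68) and for 7 every MDM library was below every microglia library, beside 5.17% of all genes. P2rx4 was not called without MDM 224 or 718 or microglia 224 or 431 (up to 0.149). Adora2b was not called without MDM 224 or 718 or microglia 224 or 221 (up to 0.164). Btg2 was not called without MDM 224 or 718 or microglia 221, 431 or 718 (up to 0.226). mt-Nd5 was not called without MDM 224 or 221 or microglia 224 or 431 (up to 0.163). For Cfp the difference was not called with any library left out except lipid-laden microglia 224, 221, 431 and 718, non-lipid-laden MDM 221 and non-lipid-laden microglia 224 (up to 0.0908). For S100a11 the difference was not called without lipid-laden MDM 718 (0.0662).

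Several lists held no call among lipid-laden cells by edgeR. For interferon response genes it was 0 of 29, with 8 at an unadjusted p under 0.05, and 3 by DESeq2. Ifitm3, an antiviral membrane protein of that list, was at 364, 403 and 497 CPM in MDM and 243, 315, 231 and 282 CPM in microglia (log2 fold change 0.65, SE 0.18, edgeR adjusted p = 0.0644), and was called with the block (adjusted p = 0.0471), DESeq2 and limma-voom. Its origin effect was larger without lipid load, at 945 ± 113 against 268 ± 60.8 CPM (difference -1.16, SE 0.25, edgeR adjusted p = 0.0198). For Ifitm3 the difference was not called without lipid-laden MDM 224 (0.0662). For proliferation genes it was 0 of 26 (2 at an unadjusted p under 0.05, 0 by DESeq2), with 23 negative and a median of -0.48, against 21 lower and a median of -1.64 without lipid load. Oxidative phosphorylation (0 of 28, 1 at an unadjusted p under 0.05, 0 by DESeq2), Toll-like receptors (0 of 17, 5 and 3), Fc receptors (0 of 9, 1 and 0) and MHC class I presentation (0 of 20, 4 and 2) also held no call. These counts do not show that the groups are equal.

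**Figure D5:**
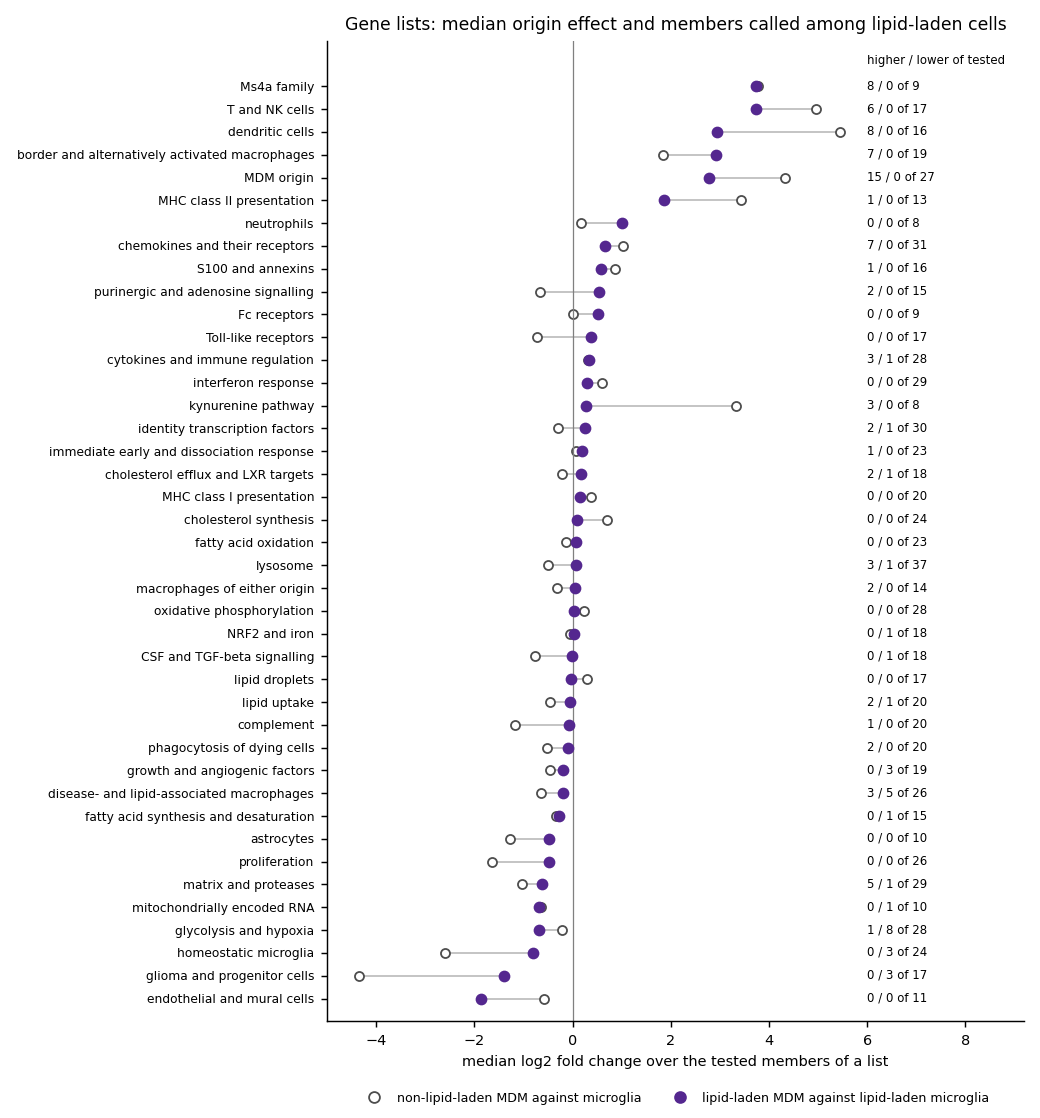
Median log2 fold change of MDM against microglia (horizontal axis) over the tested members of each list with at least 8 (vertical axis), without lipid load (open circles) and with it (filled circles), and at the right the number of members called higher and lower among lipid-laden cells. The homeostatic microglia list moves from -2.60 to -0.80 and the glioma list from -4.35 to -1.39, whereas the medians of the Ms4a family are 3.77 and 3.74.

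The difference of both origin effects was tested for every gene, and 375 of 14843 (2.53%) were called. For 237 (1.60%) the effect was more positive with lipid load and for 138 (0.930%) more negative, and the median over all genes was 0.10. With the block it was called for 418 and 239. The counts fell to 113 and 73 without lipid-laden MDM library 718, to 154 and 91 without lipid-laden MDM library 224 and to 131 and 100 without non-lipid-laden microglia library 224, the negative count was 86 without non-lipid-laden MDM library 224, and the positive count was 150 without non-lipid-laden microglia library 718.

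On the positive side, the genes below had a lower mean in non-lipid-laden MDM than in the other 3 groups. The summed glioma and progenitor genes given above were also lowest there, at 25.8 to 52.3 CPM against 101 to 199 CPM in lipid-laden MDM and more in both microglia groups, and their part in these values was not tested. Cntn1, a neural adhesion protein, was at 1.08 ± 0.772 CPM in non-lipid-laden MDM and 63.4 ± 29.0 CPM in non-lipid-laden microglia, and at 22.7, 35.9 and 23.6 CPM in MDM and 30.2, 38.2, 24.7 and 101 CPM in microglia (difference 5.00, SE 0.78, edgeR adjusted p = 0.00388). Ncan, a brain proteoglycan, was at 1.57 ± 1.71 against 67.5 ± 26.3 CPM without lipid load and at 32.0 ± 11.5 against 46.4 ± 30.1 CPM with it (difference 4.85, SE 0.94, edgeR adjusted p = 0.011). Tln2, the adhesion linker talin 2, was at 1.46 ± 1.06 against 40.3 ± 6.52 CPM and 23.9 ± 8.82 against 24.1 ± 7.42 CPM in the same order (difference 4.74, SE 0.69, edgeR adjusted p = 0.00314). Tspan18, a tetraspanin, was at 0.953 ± 0.807 against 37.4 ± 7.36 CPM and 18.0 ± 7.55 against 26.4 ± 14.9 CPM (difference 4.73, SE 0.80, edgeR adjusted p = 0.0053). Among lipid-laden cells the groups overlapped for these 4 genes. Sox11, a transcription factor of neural progenitors, was at 1.05 ± 0.690 against 25.0 ± 11.8 CPM and 13.1 ± 5.45 against 16.6 ± 6.60 CPM (difference 4.20, SE 0.72, edgeR adjusted p = 0.00563). Tgfa, an EGF receptor ligand, was at 3.12 ± 2.40 against 80.4 ± 17.2 CPM and 41.2 ± 5.51 against 61.5 ± 29.6 CPM (difference 4.13, SE 0.66, edgeR adjusted p = 0.00429). Sall3, a relative of Sall1, was at 1.90 ± 1.79 against 92.1 ± 19.2 CPM and 21.4 ± 7.62 against 61.2 ± 12.8 CPM (difference 4.09, SE 0.68, edgeR adjusted p = 0.00522). Slc2a5, the fructose transporter of microglia, was at 10.5 ± 6.59 against 315 ± 116 CPM and 106 ± 50.8 against 202 ± 151 CPM (difference 3.99, SE 0.87, edgeR adjusted p = 0.0219). For Slc2a5 the difference was not called without lipid-laden MDM 718 (0.0717). The other 7 held in all 15 fits that left out 1 library.

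On the negative side, the genes below had their highest mean in non-lipid-laden MDM. Vdr, which encodes the receptor of vitamin D, had 2500 counts in non-lipid-laden MDM and 0 in non-lipid-laden microglia, at least 793-fold higher in MDM, but was at 3.25, 3.42 and 3.59 CPM in MDM and 0, 4.92, 0 and 1.93 CPM in microglia with lipid load, where the groups overlapped through microglia library 221 alone (log2 fold change 2.36 without it, edgeR adjusted p = 0.227, and edgeR adjusted p of the difference = 0.011, and its fitted size depends on the prior count). Traf4, a signalling adaptor, was at 34.5 ± 8.96 against 7.43 ± 2.54 CPM without and 4.97 ± 2.84 against 13.5 ± 5.78 CPM with lipid load (difference -3.65, SE 0.68, edgeR adjusted p = 0.0095). Ifi205, an interferon-induced DNA-binding protein, was at 201 ± 68.7 against 5.62 ± 4.43 CPM and 43.2 ± 7.94 against 14.8 ± 13.4 CPM (difference -3.60, SE 0.85, edgeR adjusted p = 0.0342). Pfkp, the platelet isoform of phosphofructokinase, was at 474 ± 85.2 against 62.8 ± 53.9 CPM and 123 ± 20.3 against 139.7 ± 95.2 CPM (difference -3.10, SE 0.76, edgeR adjusted p = 0.0413). Alcam, an adhesion molecule, was at 43.8 ± 12.4 against 6.75 ± 4.34 CPM and 8.10 ± 2.58 against 10.5 ± 5.91 CPM (difference -3.08, SE 0.73, edgeR adjusted p = 0.0342). Ifit1bl1, an interferon-induced gene with near copies, was at 144 ± 67.8 against 14.6 ± 7.09 CPM and 25.6 ± 6.87 against 21.2 ± 6.77 CPM (difference -3.03, SE 0.55, edgeR adjusted p = 0.00821). Plp2, a membrane protein, was at 25.1 ± 6.43 against 5.78 ± 1.13 CPM and 7.46 ± 4.46 against 13.4 ± 5.32 CPM (difference -2.96, SE 0.60, edgeR adjusted p = 0.0144). Rgs12, a regulator of G protein signalling, was at 35.8 ± 9.42 against 5.24 ± 3.07 CPM and 4.54 ± 2.00 against 5.11 ± 1.12 CPM (difference -2.94, SE 0.73, edgeR adjusted p = 0.0426). Vdr, Traf4 and Ifit1bl1 held in all fits that left out 1 library. For Plp2 the difference was not called without lipid-laden MDM 718 (0.0596). For Ifi205 the difference was not called with any library left out except lipid-laden microglia 224 and 431, non-lipid-laden MDM 221 and 431 and non-lipid-laden microglia 221 (up to 0.103). For Pfkp the difference was not called with any library left out except lipid-laden microglia 224 and non-lipid-laden microglia 221 (up to 0.12). For Alcam the difference was not called with any library left out except lipid-laden MDM 221, lipid-laden microglia 224 and 718, non-lipid-laden MDM 221 and non-lipid-laden microglia 718 (up to 0.106). For Rgs12 the difference was not called with any library left out except lipid-laden microglia 224 and non-lipid-laden microglia 224 and 221 (up to 0.11).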

How the data were processed

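Read counts per gene came as 1 table of all 15 libraries, deposited by the authors as whole numbers with no normalization. Gene identifiers, symbols and coordinates stand in that table, on mm10 per the submitters' processing notes. Library preparation used oligo-dT priming with template switching on RNA from sorted cells, per the labels' protocols. For aligner, counting program, annotation release and strand setting, nothing is given in the sources used here. Antisense, overlapping and near-identical genes may therefore share reads.

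Genes were filtered with filterByExpr (minimum count 10, minimum total 15), which kept 14843 of 55486. Counts were scaled by TMM, and 1 edgeR quasi-likelihood model was fitted to the 4 groups over all 15 libraries, which share 1 estimate of the spread (R 4.3.3, edgeR 4.0.16). Contrasts were MDM against microglia with lipid load, the same without it, and the difference of both. Genes with a Benjamini-Hochberg adjusted p under 0.05 over all genes tested were called. The standard error is the absolute log2 fold change divided by the square root of F. Alternatives used DESeq2 1.42.0, limma-voom 3.58.1, other scaling, other filters, a minimum fold of 2, other sets of libraries and the library number as a block. The edgeR step was tested on simulated data. The 3 number-matched pairs of lipid-laden libraries had correlated deviations (0.114, 0.168 and 0.107 for numbers 224, 221 and 718), so the numbers pair the samples. The sample titles give them after the prefix mn, but no label says what they stand for. The edgeR calls come from the fit that does not use this pairing, save where the block is named. No 2 libraries of 1 group agreed within counting noise.

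Genes at 0 counts in lipid-laden microglia are given as a lower bound against 3 counts over the group, which covers counting error only, and the interval of Kmo is an exact binomial 95% interval. Named genes were the 15 largest increases and decreases among called genes with a mean log2 CPM of at least 3 and 1 direction in all 3 pairs, up to 4 members with the smallest p of a list, the 8 largest differences of origin effects in each direction, and 20 fixed genes, with predicted genes left out. Some named genes are not reported here, and marker sums and plots leave them out. Selplg, Itgam and Ifitm3 fall under the list rule though not called. The 44 gene lists (767 symbols, 725 tested) and the named genes were chosen with earlier results of these data known. Promoter windows are RefSeq's, build GRCm38.p6.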

Additional observations from a re-analysis of the deposited data

Results flagged for a closer look

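Single libraries stood far from the rest of their group in 25 of 215 groups of 4 libraries tested for an outlying value (Dixon's ratio above its 95% critical value). The nominal rate of about 1 in 20 holds for independent, normally spread values. These groups share libraries, and some genes lie near 0, as Kmo and Mgl2 do, so the count cannot be read against that rate. Of the 25, 21 fell among the 135 tested in lipid-laden microglia, and 13 of those 21 were library 221. That library held the highest level of its group for MHC class II genes, with H2-Ab1 at 2407, Cd74 at 2515 and Ciita at 16.1 CPM, and for Cd36 (349 CPM), Arg1 (4632 CPM), Lsp1 (111 CPM), Plaur (627 CPM), Cdk18 (57.4 CPM), Fkbp14 (33.6 CPM) and the summed T and NK cell genes (16.2 CPM). Its single count of Kmo (0.100 CPM) also stood apart, and it was the lowest for Scd2 (279 CPM) and Tln2 (13.1 CPM).

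Lipid-laden microglia library 224 was the lowest of its group for Tpi1 (1023 CPM) and Pkm (2127 CPM) and the highest for Mgl2 (3.12 CPM) and Retnlg (9.80 CPM). Library 718 was the highest for Itga4 (4.27 CPM), F13a1 (30.8 CPM) and Cspg4 (76.2 CPM), and library 431 for Ahr (1.34 CPM). Among non-lipid-laden cells, Abca1 (441 CPM) and Traf4 (3.62 CPM) were lowest in microglia library 431, Ifit1bl1 (25.2 CPM) was highest in microglia library 718, and Hmox1 (321 CPM) was lowest in MDM library 224.

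For 40 named genes the origin difference itself differed with lipid load (edgeR test of the difference of log2 fold changes, lipid-laden minus non-lipid-laden). Among microglial and macrophage genes it was more positive for Sall1 (2.97), Ecscr (2.34), P2ry12 (2.22), Tmem119 (1.95), Csf1r (1.14) and Itgam (0.91), and for the lipid and lysosome genes Lpl (1.64), Trem2 (1.32), Ctsl (1.15), Abca1 (1.10) and Hmox1 (0.93). The widest positive values were those of Cntn1 (5.00), Ncan (4.85), Tln2 (4.74), Tspan18 (4.73), Sox11 (4.20), Tgfa (4.13), Sall3 (4.09) and Slc2a5 (3.99), with Kynu at 6.27, a value that rests on 0 counts in lipid-laden microglia and on the prior count.

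It was more negative for the monocyte and immune genes H2-Oa (-2.52), S100a11 (-2.51), Lsp1 (-2.49), H2-DMb2 (-2.40), Plac8 (-2.35), Bhlhe40 (-2.14), Cfp (-2.70), Ifitm3 (-1.16), Il1b (-1.11) and Gm2a (-0.84). The hypoxia genes Ndrg1 (-3.85) and Ankrd37 (-2.27) were among them. Further values were -3.65 for Traf4, -3.60 for Ifi205, -3.10 for Pfkp, -3.08 for Alcam, -3.03 for Ifit1bl1, -2.96 for Plp2 and -2.94 for Rgs12, and Vdr stood at -11.35, which depends on the prior count because non-lipid-laden microglia held no count.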

How the results depend on the processing

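The counts of called genes moved more than the directions. Against 413 genes (327 higher, 86 lower) between lipid-laden MDM and lipid-laden microglia, DESeq2 called 798 (515 and 283), limma-voom 140 lower, the replicate block 147 lower, a fit of the 7 lipid-laden libraries alone 176 (127 and 49), a replicate block on the 6 number-matched lipid-laden libraries 89 (67 and 22), and a test against a minimum fold of 2 called 109 (106 and 3). Fits without 1 library gave 168 to 378 (155 to 308 higher, 13 to 85 lower), the fewest without lipid-laden MDM 224. Against 375 differences of origin effects (237 more positive, 138 more negative), DESeq2 called 960 (546 and 414), the replicate block 657 (418 and 239), and fits without 1 library 186 to 452 (113 to 263 and 73 to 189), the fewest without lipid-laden MDM 718. The 345 genes called in both origin comparisons became 592 with DESeq2 and 157 to 363 without 1 library. The 3442 genes of the non-lipid-laden comparison stayed within 1.5 times (2755 to 3158 without 1 library). For the changed counts the cause was not tested, save that fits with fewer libraries have fewer degrees of freedom.

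Of 87 named calls, 17 held in all alternatives run and 70 were lost in at least 1, while none reversed. The replicate block lost Trib3, Pdgfa and Psap (adjusted p 0.0627, 0.0522 and 0.0526), gained 7 named genes, and changed no other named call. By list, calls lower in homeostatic microglia genes went from 3 to 8 with DESeq2. Reversals were limited to 4 uncalled genes. Cd36 (-0.06) became 0.81 with limma-voom, 0.53 with the replicate block, 1.10 without number 221, 0.60 with the block on 6 libraries and -1.44 to 2.46 in the fits without 1 library. Abca1 (-0.01) became 0.22 without number 221. In the fits without 1 library, Abca1 ranged from -0.17 to 0.21, Gpnmb (0.19) from -0.14 to 0.74, and Csf1r (-0.17) from -0.34 to 0.013. Detection was not tested against depth, and for genes at 0 counts in a group the depth sets the lower bound of the fold.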
